A study of Mus musculus with 24 samples.

Results

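The genes described here are those whose expression after loss of both PU.1 and SpiB departed from what the single losses add up to. They were measured by RNA-seq in mouse lymph node B cells activated for 48 h with CD40L + IL-4, a culture that mimics T cell help. All 8 libraries of that culture were used, of 24 in the series, with 2 for each of 4 genotypes. For each gene the change in the double mutant minus the changes in both single mutants was taken on the log2 scale, and this value is called the interaction. It is 0 when the folds of the single losses multiply to give the fold of the double loss. Of 27179 genes in the count table, 12721 passed the filter on low counts and were tested, and 149 had an interaction at a Benjamini-Hochberg adjusted p under 0.15 in edgeR's quasi-likelihood test.

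All mice were C57BL/6 by their labels. Control mice were Cd23T/+, carrying a transgene in which Cd23 regulatory sequences drive Cre from the transitional B cell stage on. PU.1 cKO mice were Spi1 fl/fl Cd23T/+, so that Cre removes an exon of the gene for PU.1. SpiB KO mice were Spi1 fl/fl Cd23+/+ Spib-/-, with germline loss of SpiB, floxed but intact Spi1 and no Cre. PU.1 SpiB DKO mice were Spi1 fl/fl Cd23T/+ Spib-/-. Because the transgene was absent from SpiB KO and the floxed alleles from control, effects of these 2 elements and the interaction of the losses cannot be told apart.

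PU.1 and SpiB are ETS family transcription factors that recognize the same purine-rich GGAA element, and both can recruit IRF4 or IRF8 to composite sites next to it. PU.1 is best known for directing the myeloid and lymphoid lineages, whereas SpiB is largely restricted to lymphocytes and plasmacytoid dendritic cells. Where either factor can serve a gene, one can cover for loss of the other. Only loss of both then shows that the gene needs at least one of them. Whether this holds for the genes described here was not tested.

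The libraries held 9598674 to 11434235 counts, except PU.1 cKO replicate 2, which held 61640683. Levels are CPM, counts scaled to the size of each library by TMM, and the 2 values of each genotype stand in the order of the replicates. Libraries without PU.1 are those of PU.1 cKO, those without SpiB are SpiB KO, and those without both are PU.1 SpiB DKO. No molecular identifiers were used, so counts are of reads and not of molecules. Spi1 was read at 84.8 and 108 CPM in control, 46.9 and 35.1 in libraries of PU.1 cKO, 110.0 and 92.1 in those of SpiB KO and 32.5 and 25.6 in those of PU.1 SpiB DKO. These gene-level counts include exons that Cre leaves in place, so they cannot show how complete the deletion was. From read coverage, the study reports the floxed Spi1 exon as fully excised in this culture, with Spib present or absent. Spib gave 398 and 525 CPM in control, 469.6 and 457 without PU.1, 36.95 and 24.4 without SpiB and 11.3 and 9.05 without both. The remaining Spib reads in the Spib-/- libraries were themselves fewer in PU.1 SpiB DKO than in SpiB KO, with an interaction of -1.60 ± 0.32 (SE, adjusted p = 0.0785). By the study's gating scheme the cells taken for RNA-seq were CD3- B220+ CD138-. The 10 B cell markers summed to 7327 and 9118 CPM in control, 6668 and 6146 without PU.1, 9988 and 7228 without SpiB and 5861 and 4533 without both. With double loss 6 of the 10 fell by over 1.5-fold against control, where 18.3% of all tested genes changed in either direction. The T cell genes Cd3e, Cd3d, Cd3g and Cd4 were under 1 CPM in every library and the macrophage genes Csf1r, C1qa, C1qb and C1qc were at 0. Other markers of these cell types that were detected are given further on.

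Double loss lowered 80 of the 149 genes below the sum of the single losses and raised 69 above it. The background is 1.17% of tested genes with an interaction, 0.629% below the sum and 0.542% above it. The median interaction was -1.88 among genes below the sum and 1.85 among genes above it, against 0.01 over all genes tested. Without Gdpd3 and Enpep, whose reads were 0 in both libraries of a genotype, the medians were -1.88 and 1.84. Loss of SpiB alone changed 17 genes by over 1.5-fold (0.134% of those tested), and 3 of the 149. On the PU.1-deficient background, comparing PU.1 SpiB DKO with PU.1 cKO, loss of SpiB changed 517 genes (4.06%), among them 127 of the 149. Loss of PU.1 alone changed 1714 genes (13.5%) and double loss 2331 (18.3%), both against control. The interaction is built from these same libraries, so the shares among the 149 describe its form and are no separate test.

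Of the 80 genes below the sum, 28 moved beyond the sum, with a double mutant change in the direction of the summed single changes and larger. A further 26 fell short of the sum, and in 26 the double mutant changed in the direction opposite to it. Of the 69 genes above the sum, 8 moved beyond it, 31 fell short of it and 30 were opposite to it. PU.1 loss alone raised 40 of the 80 genes and lowered 15, whereas double loss lowered 38 and raised 11. PU.1 loss alone lowered 45 of the 69 genes and raised 5, whereas double loss lowered 15 and raised 22. In 45 of the 80 genes both PU.1 SpiB DKO libraries lay below the other 6, an arrangement found in 10.8% of all tested genes, and in 35 both PU.1 cKO libraries lay above the other 6 (4.61% of all tested genes). In 36 of the 69 genes both PU.1 cKO libraries lay below the other 6 (5.99% of all tested genes), and in 29 both PU.1 SpiB DKO libraries lay above them (10.5%).

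**Figure D1:**
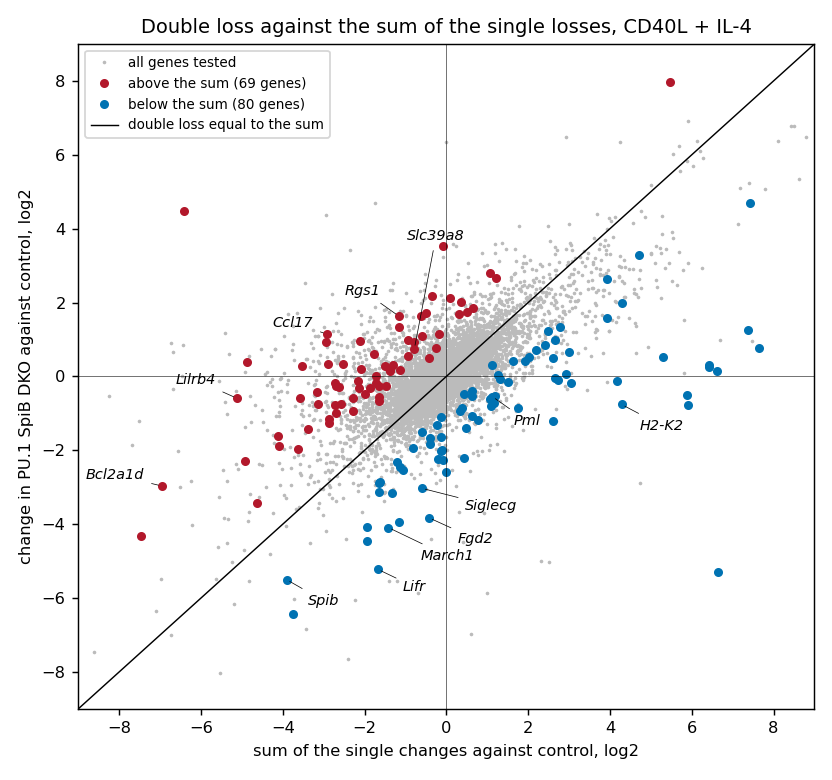
Change of each gene in PU.1 SpiB DKO against control (vertical axis, log2) plotted against the sum of its changes in PU.1 cKO and SpiB KO (horizontal axis, log2), for the genes tested in CD40L + IL-4. Grey points are all genes, blue points the 80 below the sum and red points the 69 above it, and the line marks equality. Fgd2 and Siglecg lie well under the line near a sum of 0, and 2 genes with an interaction (Gm8815 and H2-Ea-ps) lie outside the axes.

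The count of 149 leans on single libraries and on the model. Of the fits with 1 library left out most gave fewer genes, and those without SpiB KO replicate 2 or PU.1 SpiB DKO replicate 1 gave more. These fits shared between 47 and 129 genes with the 149. Voom with quantile normalization called 75 genes, all among the 149, and DESeq2 called 284, which included 146 of them. Among the genes named by rule, voom lost the calls of Lifr, H2-Q1, Oas3, Ccr6, Lgmn, Pik3cg, Bank1, Ptpn22, Klf3, Cd72, Fcrl5, Nfam1, Il9r and Tmem176b, with adjusted p of 0.152 to 0.232.

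The clearest losses in the double mutant were in genes that changed by less than 1.5-fold when only one factor was lost. Fgd2, an exchange factor that activates the GTPase Cdc42 in antigen-presenting cells, was read at 102 and 111 CPM in control, 87.7 and 83.8 without PU.1, 115 and 82.9 without SpiB and 7.87 and 7.15 without both. Both PU.1 SpiB DKO libraries were more than 10-fold under every other library, and the remaining 6 libraries overlapped. Its interaction was -3.40 ± 0.27 (SE, adjusted p = 0.000716), and it kept values of -3.64 to -3.15 when any library was left out. Loss of SpiB changed Fgd2 by -0.11 on the log2 scale with PU.1 present and by -3.51 with PU.1 deleted.

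Rnf144a, which encodes a RING-type ubiquitin ligase, was read at 62.99 and 51.97 CPM in control, 52.5 and 46.3 without PU.1, 66.4 and 59.4 without SpiB and 13.4 and 10.7 without both. The other 6 libraries lay well above the double mutant, and the interaction was -2.17 ± 0.25 (SE, adjusted p = 0.00494). Siglecg encodes a sialic acid-binding receptor that dampens B cell receptor (BCR) signalling. It was read at 129 and 154 CPM in control, 98.7 and 90.6 without PU.1, 169 and 111 without SpiB and 15.4 and 19.1 without both, with an interaction of -2.43 ± 0.30 (SE, adjusted p = 0.00543). Both libraries of the double mutant lay below the other 6, and both of PU.1 cKO lay below control, with a change of -0.58 on the log2 scale.

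A second set fell with PU.1 loss alone and then fell further than the sum. March1 encodes the ubiquitin ligase that takes MHC class II and CD86 off the cell surface. Its libraries read 107 and 123 CPM in control, 48.4 and 39.9 without PU.1, 121 and 103 without SpiB and 6.80 and 6.67 without both. PU.1 loss changed March1 by -1.39 and double loss by -4.09 on the log2 scale, with an interaction of -2.67 ± 0.25 (SE, adjusted p = 0.00221). Lifr, the receptor chain for leukaemia inhibitory factor, was read at 49.5 and 57.4 CPM in control, 28.1 and 18.9 without PU.1, 51.6 and 25.6 without SpiB and 1.94 and 0.953 without both, with an interaction of -3.54 ± 0.54 (SE, adjusted p = 0.0238). PU.1 cKO lay between control and PU.1 SpiB DKO in both of these genes, with no overlap of the 3.

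The innate sensors Tlr9 and Oas3 were in this set too. Tlr9, the endosomal receptor for CpG DNA, was read at 126 and 143 CPM in control, 77.96 and 67.02 without PU.1, 139.7 and 98.7 without SpiB and 24.7 and 21.6 without both. Its interaction was -1.47 ± 0.27 (SE, adjusted p = 0.0563), past the threshold in 4 of the 8 fits with a library left out. Oas3 makes the second messenger that activates RNase L, and was read at 12.1 and 8.28 CPM in control, 3.71 and 4.09 without PU.1, 7.29 and 6.50 without SpiB and 0.432 and 0.476 without both, with an interaction of -2.52 ± 0.50 (SE, adjusted p = 0.0813) that was lost in 4 of the 8 such fits. Gbp3, which encodes an interferon-inducible GTPase, did not fall with PU.1 loss alone. It was read at 25.8 and 29.4 CPM in control, 29.4 and 27.8 without PU.1, 35.5 and 31.3 without SpiB and 15.6 and 13.1 without both and had an interaction of -1.27 ± 0.24 (SE, adjusted p = 0.0699), lost in 5 of the 8 fits. PU.1 cKO overlapped control.

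Ccr6, the receptor for the chemokine CCL20, read 122 and 111 CPM in control, 36.97 and 29.7 without PU.1, 155 and 104 without SpiB and 12.6 and 14.1 without both. Lgmn, a lysosomal endopeptidase of antigen processing, read 229 and 266 CPM in control, 107 and 104 without PU.1, 218 and 153 without SpiB and 35.3 and 32.4 without both. Both were lower in PU.1 cKO than in control and lowest in PU.1 SpiB DKO. Their interactions were -1.46 ± 0.29 (SE, adjusted p = 0.0844) and -1.22 ± 0.26 (SE, adjusted p = 0.114), and each call was lost in 5 or more of the 8 fits with a library left out.

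BCR signalling contributed Pik3cg, a catalytic subunit of phosphoinositide 3-kinase, and Bank1, an adaptor for the kinase Lyn. Pik3cg was read at 89.1 and 72.3 CPM in control, 145 and 90.4 without PU.1, 105 and 66.2 without SpiB and 45.3 and 31.6 without both. Bank1 was read at 294 and 238 CPM in control, 342 and 254 without PU.1, 353 and 267 without SpiB and 166 and 129.6 without both. Both were lowest in PU.1 SpiB DKO. Their interactions were -1.69 ± 0.39 (SE, adjusted p = 0.134) and -1.23 ± 0.30 (SE, adjusted p = 0.146), close to the threshold, and each call was lost in 5 of the 8 fits with a library left out.

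Several other genes showed the same form, and these were chosen after their values were seen. Ms4a1, which encodes CD20, was read at 1524 and 2174 CPM in control, 1624 and 1421 without PU.1, 2324 and 1797 without SpiB and 703 and 478 without both, with an interaction of -1.52 ± 0.33 (SE, adjusted p = 0.118). Pld4, an endolysosomal nuclease of single-stranded nucleic acids, was read at 148 and 189 CPM in control, 54.6 and 50.3 without PU.1, 176 and 105 without SpiB and 10.5 and 9.43 without both, with an interaction of -2.14 ± 0.34 (SE, adjusted p = 0.025). Haao, an enzyme of the kynurenine pathway, had an interaction of -1.43 ± 0.22 (SE, adjusted p = 0.0245), and Snx29, a sorting nexin, one of -1.88 ± 0.37 (SE, adjusted p = 0.0813). In all 4 both PU.1 SpiB DKO libraries were lower than every other library.

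A different form of shortfall appeared in genes that rose when PU.1 alone was lost and did not when both were. Pml, the scaffold protein of nuclear bodies, was read at 423 and 395 CPM in control, 729.6 and 612 without PU.1, 549 and 537 without SpiB and 317 and 243 without both. PU.1 cKO was higher than every other library and PU.1 SpiB DKO lower, with an interaction of -1.67 ± 0.24 (SE, adjusted p = 0.0156). Kbtbd11, a Kelch and BTB domain protein, was read at 14.9 and 18.5 CPM in control, 83.2 and 57.4 without PU.1, 29.3 and 23.6 without SpiB and 15.6 and 15.8 without both, with an interaction of -2.81 ± 0.31 (SE, adjusted p = 0.00465). Its level in PU.1 SpiB DKO lay within the control range, whereas PU.1 cKO was over 3-fold higher than control. Pdlim1, a PDZ and LIM protein of the actin cytoskeleton, was read at 76.6 and 80.7 CPM in control, 128 and 147 without PU.1, 89.5 and 102 without SpiB and 48.3 and 42.3 without both, with an interaction of -1.89 ± 0.22 (SE, adjusted p = 0.00494).

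Regulators of signalling and survival behaved alike in part. Bcl2l11, which encodes the pro-apoptotic protein Bim, was read at 76.4 and 75.6 CPM in control, 245 and 186 without PU.1, 127 and 117 without SpiB and 157 and 94.98 without both. Ptpn22, a phosphatase of Src family kinases, was read at 28.9 and 29.5 CPM in control, 78.7 and 74.4 without PU.1, 75.4 and 42.8 without SpiB and 55.9 and 50.02 without both. Their means were higher than control in all 3 mutants, and in the double mutant by less than the sum, with interactions of -1.46 ± 0.32 (SE, adjusted p = 0.121) and -1.55 ± 0.32 (SE, adjusted p = 0.0975), each lost in 5 of the 8 fits with a library left out. Klf3, a transcriptional repressor of the Krüppel-like family, had an interaction of -1.22 ± 0.29 (SE, adjusted p = 0.141) and read 51.6 and 37.2 CPM in PU.1 SpiB DKO against 50.2 and 36.4 in control, and its call was lost in 6 of those fits. Hif1a, the oxygen-regulated transcription factor, was chosen after its values were seen and read 172 and 142 CPM in control, 479.8 and 342 without PU.1, 171 and 172 without SpiB and 158 and 123 without both. Its interaction was -1.67 ± 0.28 (SE, adjusted p = 0.0363).

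Genes above the sum were mostly of 2 forms. In 29 of the 69 the double mutant was above every other library, and in 36 PU.1 cKO was below every other library. Rgs1 accelerates GTP hydrolysis by the G proteins of chemokine receptors. It was read at 7.98 and 10.4 CPM in control, 5.41 and 6.99 without PU.1, 7.29 and 4.59 without SpiB and 26.6 and 30.01 without both. Both PU.1 SpiB DKO libraries were over 2-fold higher than every other library, and the interaction was 2.79 ± 0.37 (SE, adjusted p = 0.00841). Slc39a8, a zinc and manganese importer, was read at 33.1 and 37.1 CPM in control, 21.5 and 25.4 without PU.1, 27.1 and 33.4 without SpiB and 58.9 and 58.9 without both, with an interaction of 1.53 ± 0.24 (SE, adjusted p = 0.0245). Cst7, an inhibitor of lysosomal cathepsins, was read at 13.6 and 18.5 CPM in control, 23.7 and 26.4 without PU.1, 13.3 and 12.6 without SpiB and 61.3 and 68.02 without both, with an interaction of 1.67 ± 0.26 (SE, adjusted p = 0.0245).

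Actr3b, a subunit of the actin-nucleating Arp2/3 complex, was read at 6.23 and 6.50 CPM in control, 8.12 and 8.58 without PU.1, 3.45 and 2.86 without SpiB and 15.2 and 24.5 without both. SpiB KO lay lowest and PU.1 SpiB DKO highest, with an interaction of 2.26 ± 0.39 (SE, adjusted p = 0.0406). Plxnd1, a semaphorin receptor, had an interaction of 1.92 ± 0.30 (SE, adjusted p = 0.025) and read 32.8 and 46.8 CPM in PU.1 SpiB DKO against 20.7 and 19.3 in control. Ly75, which encodes the endocytic receptor DEC-205, read 95.5 and 77.8 CPM in control, 65.6 and 59.01 without PU.1, 54.2 and 56.8 without SpiB and 97.2 and 99.4 without both. Both single mutants were below control and the double mutant was not, with an interaction of 1.30 ± 0.22 (SE, adjusted p = 0.0368).

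In genes of the second form PU.1 cKO was lowest, and in those that follow PU.1 SpiB DKO lay nearer to control. Mreg, a protein of organelle transport, was read at 89.4 and 90.5 CPM in control, 33.7 and 35.6 without PU.1, 53.9 and 51.9 without SpiB and 62.5 and 82.4 without both. Fmnl2, a formin that elongates actin filaments, was read at 21.8 and 14.98 CPM in control, 4.21 and 5.11 without PU.1, 8.77 and 7.10 without SpiB and 14.2 and 13.3 without both. Both single mutants were below both control libraries in these genes, and the double mutant lay above both PU.1 cKO libraries. The interactions were 1.83 ± 0.23 (SE, adjusted p = 0.00567) and 2.75 ± 0.35 (SE, adjusted p = 0.00567). S1pr3, a receptor for sphingosine-1-phosphate, was read at 81.2 and 87.1 CPM in control, 11.9 and 14.8 without PU.1, 76.96 and 64.5 without SpiB and 39.7 and 36.2 without both, with an interaction of 1.73 ± 0.24 (SE, adjusted p = 0.0104). Nrp2, a co-receptor for semaphorins, was read at 31.8 and 33.3 CPM in control, 8.02 and 5.10 without PU.1, 43.5 and 31.9 without SpiB and 32.5 and 27.4 without both, with an interaction of 2.05 ± 0.33 (SE, adjusted p = 0.0272).

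Inhibitory and activating immune receptors of this form were Cd72, Fcrl5, Lilrb4 and Nfam1. Cd72, a brake on BCR signalling, was read at 71.4 and 77.4 CPM in control, 16.5 and 18.8 without PU.1, 79.8 and 48.7 without SpiB and 42.3 and 36.1 without both, with an interaction of 1.35 ± 0.31 (SE, adjusted p = 0.133) that was lost in 7 of the 8 fits with a library left out. Fcrl5, an Fc receptor-like protein, had an interaction of 1.70 ± 0.40 (SE, adjusted p = 0.139), lost in 6 of the 8. Lilrb4, an inhibitory immunoglobulin-like receptor, was read at 8.60 and 9.85 CPM in control, 0.301 and 0.378 without PU.1, 8.18 and 5.11 without SpiB and 4.64 and 7.53 without both. Nfam1, a receptor with an activating motif, was read at 27.6 and 35.2 CPM in control, 0.501 and 0.296 without PU.1, 18.8 and 13.3 without SpiB and 1.19 and 1.91 without both. Their interactions were 4.53 ± 0.53 (SE, adjusted p = 0.00494) and 3.16 ± 0.51 (SE, adjusted p = 0.0274). PU.1 cKO was under 1 CPM in both. PU.1 SpiB DKO overlapped SpiB KO in Lilrb4 and lay far below it in Nfam1.

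The A1 genes Bcl2a1b and Bcl2a1d, near-identical copies that encode anti-apoptotic BCL2 relatives, were read at 42.2 and 52.7 CPM in control, 3.21 and 2.80 without PU.1, 24.2 and 25.99 without SpiB and 11.9 and 7.72 without both and at 19.6 and 26.8 CPM in control, 0.601 and 0.444 without PU.1, 7.10 and 10.6 without SpiB and 3.56 and 2.38 without both respectively. Their interactions were 2.65 ± 0.33 (SE, adjusted p = 0.00543) and 3.99 ± 0.49 (SE, adjusted p = 0.00543). The study kept only uniquely mapped reads, so reads shared by such copies can be lost and the values of each are uncertain. In both, PU.1 cKO was lowest, PU.1 SpiB DKO next and SpiB KO below control.

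Chemokines and cytokine receptors varied more between replicates. Ccl22 and Ccl17, ligands of CCR4, were read at 73.3 and 182 CPM in control, 47.1 and 25.5 without PU.1, 94.7 and 27.98 without SpiB and 193 and 131 without both and at 2.72 and 7.65 CPM in control, 1.60 and 0.789 without PU.1, 5.12 and 1.56 without SpiB and 14.7 and 8.10 without both respectively. The interactions were 3.24 ± 0.76 (SE, adjusted p = 0.135) and 4.07 ± 0.88 (SE, adjusted p = 0.115), and the control libraries overlapped those of PU.1 SpiB DKO in Ccl22. Their calls were lost in 4 (Ccl22) and 2 (Ccl17) of the 8 fits with a library left out. Il9r, the receptor for IL-9, had an interaction of 2.44 ± 0.52 (SE, adjusted p = 0.114), lost in 6 of the 8, and Csf2rb, the shared chain of the IL-3, IL-5 and GM-CSF receptors, one of 3.01 ± 0.61 (SE, adjusted p = 0.086). In both, PU.1 cKO was below every other library. The immunoglobulin gene Ighg3, the constant region of IgG3, was under 0.4 CPM in PU.1 cKO and read 4.30 and 4.82 CPM in control and 10.1 and 7.34 in PU.1 SpiB DKO. Its interaction was 3.89 ± 0.49 (SE, adjusted p = 0.00543). Tmem176b, of the plasma cell list, had an interaction of 2.38 ± 0.57 (SE, adjusted p = 0.143) that 6 of the 8 fits with a library left out did not call.

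**Figure D2:**
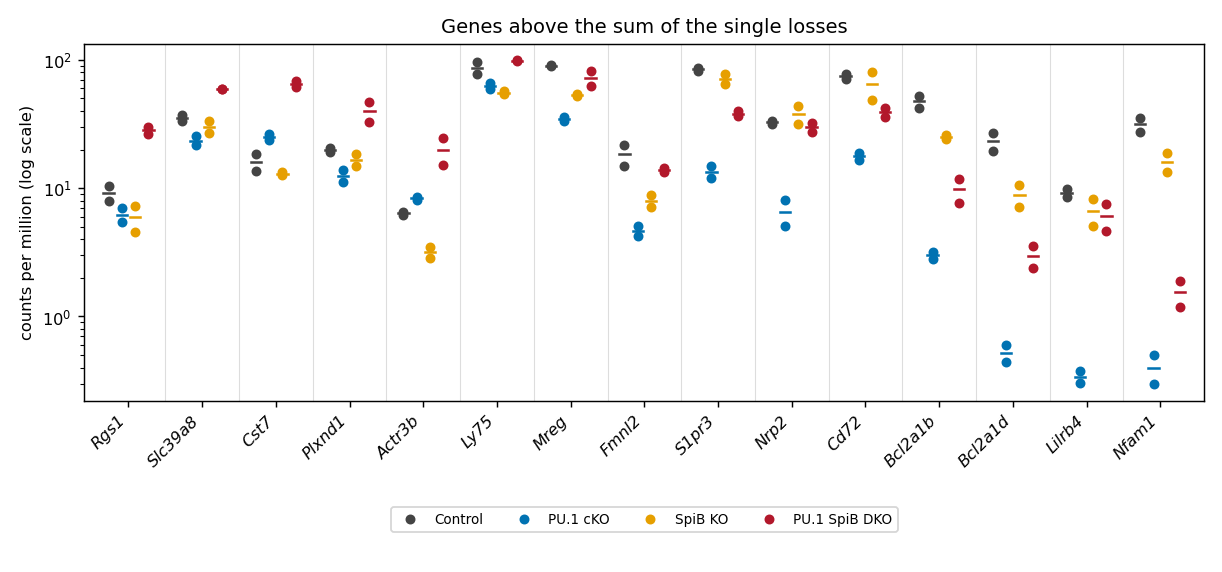
Level of 15 genes above the sum in the 8 libraries of CD40L + IL-4 (vertical axis, CPM on a log scale). Points are libraries, 2 per genotype, and bars are their means. PU.1 SpiB DKO is highest in Rgs1, Slc39a8, Cst7, Plxnd1, Actr3b and Ly75, and PU.1 cKO is lowest in the genes from Mreg on.

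Genes of the major histocompatibility complex on chromosome 17 made up a block of their own. The stretch from the first to the last tested gene named H2, chr17:33938909-37483554 (GRCm38), was chosen after values were seen. It held 124 tested genes, 11 with an interaction and 10 of them below the sum. Of all tested genes, 1.17% had an interaction and 0.629% were below the sum. In all 10, both PU.1 cKO libraries were higher than the other 6. H2-Ea-ps was read at 0.175 and 0 CPM in control, 1664 and 2764 without PU.1, 0.296 and 0.0866 without SpiB and 0.539 and 3.33 without both. H2-K2 was read at 4.91 and 5.45 CPM in control, 106 and 179.8 without PU.1, 5.22 and 2.17 without SpiB and 3.67 and 2.48 without both, with an interaction of -5.05 ± 0.56 (SE, adjusted p = 0.00466). H2-Q2 and Gm8909 read 72.8 and 113 CPM and 85.5 and 148 CPM in PU.1 cKO and under 4 CPM in every other library. H2-Q1, the remaining named gene of the stretch, read 25.8 and 59.4 CPM in PU.1 cKO and under 2 CPM elsewhere.

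The same 10 genes were higher in both PU.1 cKO libraries than in the other 6 in naive cells and in LPS + IL-4 cultures as well. H2-Ea-ps carries the Ea gene of MHC class II, which the haplotype of C57BL/6 is known not to transcribe. Class I genes of this region are near-identical copies, and reads that they share were not kept, so single values are uncertain. Whether the mice of the genotypes share 1 MHC haplotype was not tested. Outside the stretch 138 genes with an interaction remained, 70 of them below the sum.

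**Figure D3:**
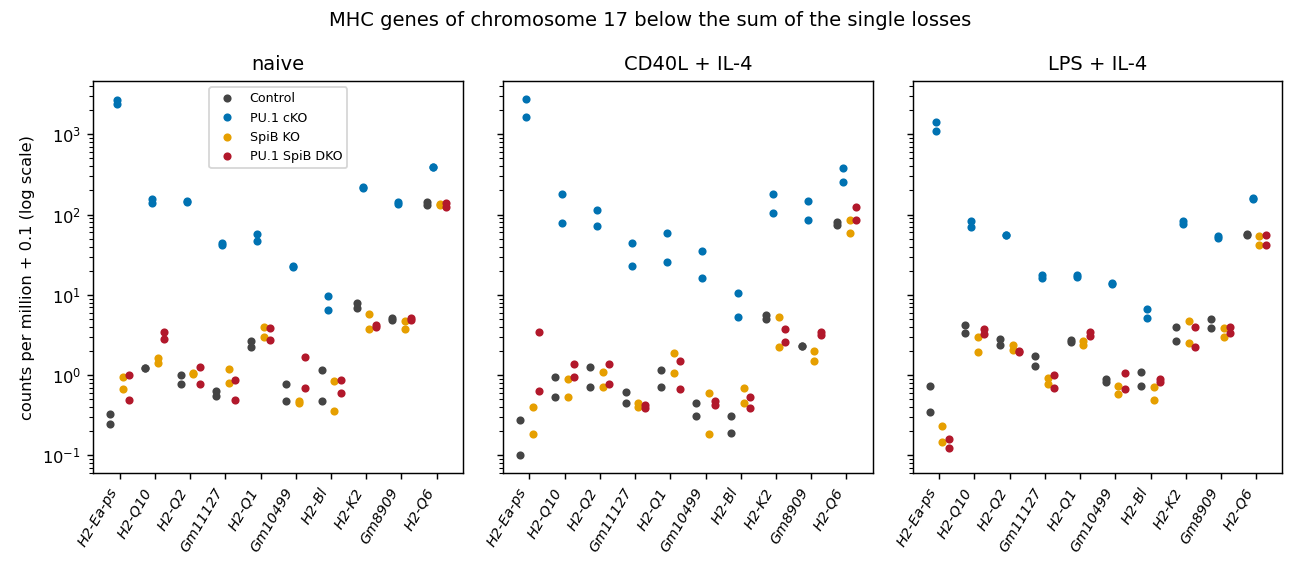
Level of the 10 chromosome 17 MHC genes below the sum in 3 stages (vertical axis, CPM + 0.1 on a log scale). Points are libraries, 2 per genotype, scaled over the 8 libraries in the middle panel and over all 24 in the others. Both PU.1 cKO points lie above the other 6 in every gene and panel.

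Other genes high in PU.1 cKO alone lay elsewhere. Gdpd3, a lysophospholipase D, was read at 0.175 and 0.419 CPM in control, 30.5 and 30.5 without PU.1, 0.0985 and 0.433 without SpiB and 0 and 0 without both, and its adjusted p was 0.0109. With 0 reads in the double mutant its fitted interaction depends on the prior count and is not given. Rps15a-ps8, a ribosomal protein pseudogene, was read at 0.351 and 0.733 CPM in control, 39.9 and 26.97 without PU.1, 0.493 and 0.520 without SpiB and 0.216 and 0.381 without both, with an interaction of -6.68 ± 0.82 (SE, adjusted p = 0.00543). Gm20568, a predicted gene, was read at 3.42 and 4.82 CPM in control, 45.8 and 83.5 without PU.1, 4.93 and 4.42 without SpiB and 4.10 and 3.43 without both, with an interaction of -4.30 ± 0.46 (SE, adjusted p = 0.00465). Only PU.1 cKO stood apart in these 3 after CD40L + IL-4. PU.1 cKO was highest in Rps15a-ps8 and Gm20568 in the other stages too. Naive PU.1 cKO libraries read 69.2 and 72.2 CPM and 110 and 87.1 CPM respectively. Naive Gdpd3 read 0.457 and 0.149 CPM in control and 158 and 151 in PU.1 cKO. It was also high in naive SpiB KO (31.0 and 31.1 CPM) and PU.1 SpiB DKO (27.1 and 46.6). Whether the genotypes differ in genetic background at these genes was not tested.

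Near the targeted alleles, 3 of 67 tested genes within 1 Mb of Spib had an interaction, where 1.17% of all tested genes had one. They were Spib itself, Napsa (an aspartic protease) and Fcgrt (the neonatal Fc receptor). Napsa was read at 669 and 884 CPM in control, 817 and 819 without PU.1, 1222 and 1039.8 without SpiB and 588 and 487 without both and Fcgrt at 12.02 and 21.4 CPM in control, 23.7 and 22.4 without PU.1, 55.5 and 24.95 without SpiB and 10.7 and 7.62 without both, both chosen after their values were seen. By edgeR's quasi-likelihood test, 0 of 28 genes within 1 Mb of Spi1 had an interaction (2 at an unadjusted p under 0.05, 0 by voom and 0 by DESeq2). Near Fcer2a it was 0 of 24 (4 unadjusted, 0 by voom and 3 by DESeq2). At the share of all tested genes, sets of this size can hold none. Fcer2a, the CD23 gene whose regulatory sequences drive Cre, was read at 1022 and 1065 CPM in control, 286 and 297 without PU.1, 637 and 594 without SpiB and 258 and 349.5 without both, with an interaction of 0.82 ± 0.24 (SE, adjusted p = 0.263) that passed the threshold with DESeq2 (0.0649) and in the fit of all 24 libraries (0.0717).

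By edgeR each pathway list held between 0 and 4 genes with an interaction, where 1.17% of all tested genes had one. The counts below are of list members tested, with the median interaction beside the 0.01 of all genes tested. In BCR signalling 2 of 35 members were below the sum and none above it, with a median of -0.17. The inhibitors of the BCR and the Fc receptors had 2 of 18 above the sum (Cd72 and Fcrl5) and 2 below it (Siglecg and Ptpn22), with a median of -0.23. Tlr9 alone, of 26 receptors and adaptors for BAFF, CD40L and TLR ligands, was below the sum, and their median was -0.32. MHC class II presentation had March1 and Lgmn of 17 below the sum and a median of -0.03. The class II molecules themselves did not pass the test.

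Among 26 migration and adhesion genes, Rgs1, Ccl17 and Ccl22 were above the sum and Ccr6 below it, with a median of 0.34. The 32 cytokine receptor and JAK-STAT genes had Il9r and Csf2rb above the sum, and a median of 0.05. Of 16 BCL2 family genes, Bcl2a1b and Bcl2a1d were above the sum and Bcl2l11 below it. Of 24 interferon-stimulated genes, Gbp3 and Oas3 were below the sum. Of 30 B cell transcription factors, Spib and Klf3 were below the sum, and Spib was the single member called of 17 ETS family genes. Spib is itself the deleted gene, and its value rests on the reads that remained in Spib-/- libraries. These counts are from edgeR, and other tools gave others. Voom called 0 and DESeq2 5 in BCR signalling, 1 and 5 among the BCR inhibitors and Fc receptors, 1 and 1 among the receptors for BAFF, CD40L and TLR ligands and 1 and 2 in class II presentation. They called 3 and 7 migration genes, 1 and 4 cytokine receptor genes, 3 and 3 of the BCL2 family, 1 and 2 interferon-stimulated genes and 1 and 3 transcription factors.

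Plasma cell and secretory genes were counted beside the 1.17% of all tested genes with an interaction, a share at which lists of this size can hold none. Of 18 plasma cell genes, 12 rose with PU.1 loss and 12 with double loss, each against control, where 6.27% and 9.13% of all tested genes rose. Tmem176b alone had an interaction by edgeR, and none did by voom or DESeq2 (6 at an unadjusted p under 0.05). Of 41 genes for folding and export of proteins in the endoplasmic reticulum, 11 rose with PU.1 loss and 22 with double loss, and their median interaction was 0.26. By edgeR 0 of these 41 had an interaction (5 at an unadjusted p under 0.05, 0 by voom and 0 by DESeq2). Of 31 cell cycle genes, 0 had one (1 unadjusted, 0 by voom and 1 by DESeq2), with a median of -0.01. At this replication a median gene had a standard error of 0.30 for its interaction, against 0.21 for its PU.1 effect, so departures of moderate size could pass undetected.

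Several regulators that define the B cell state had no interaction by the test. Bach2, a repressor of plasma cell differentiation, was read at 159 and 118 CPM in control, 148 and 115 without PU.1, 138 and 129 without SpiB and 78.4 and 64.6 without both. It was lowest in both PU.1 SpiB DKO libraries, with an interaction of -0.82 ± 0.27 (SE, adjusted p = 0.36). Tnfrsf13c, the BAFF receptor gene, read 158 and 118 CPM in PU.1 SpiB DKO and at least 230.2 CPM elsewhere, with -0.80 ± 0.27 (SE, adjusted p = 0.368). Tlr4, the receptor for lipopolysaccharide, gave -0.95 ± 0.30 (SE, adjusted p = 0.311), and Btk, the kinase downstream of the BCR, gave -0.61 ± 0.23 (SE, adjusted p = 0.455). These values lay below the sum without passing the threshold. In the fit of all 24 libraries Bach2, Tnfrsf13c and Tlr4 did pass it (adjusted p = 0.0634, 0.0546 and 0.0291), as they did without a filter on low counts, and Bach2 also passed with a replicate block (0.0597).

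Prdm1, the master regulator of plasma cells, was read at 8.33 and 9.12 CPM in control, 48.8 and 52.9 without PU.1, 5.03 and 6.06 without SpiB and 45.4 and 50.6 without both, and its interaction was 0.56 ± 0.25 (SE, adjusted p = 0.614). The libraries of PU.1 cKO overlapped those of the double mutant. Cd40 (0.59 ± 0.27 (SE)), Xbp1 (0.51 ± 0.26 (SE)), Rasgrp3 (0.59 ± 0.25 (SE)) and Il5ra (1.08 ± 0.32 (SE)) lay above the sum with adjusted p of 0.268 or more, and Il5ra passed the threshold with DESeq2 (0.0969) and in the fit of 24 libraries (0.0428). Pax5, Bcl6, Irf4, Irf8, Pou2af1, Tcf3, Tcf4, Ell2, Cebpb, Cd79a, Cd79b and Il4ra had interactions between -0.39 and 0.46, with standard errors of up to 0.59, and adjusted p of 0.889 or more.

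Markers of other cell types were followed beside these genes. The 16 tested T and NK cell markers summed to 163 and 182 CPM in control, 214 and 219 without PU.1, 278 and 207 without SpiB and 419 and 392 without both. Thy1 was the 1 marker of them with an interaction (1.23 ± 0.22 (SE, adjusted p = 0.0471)), and it was read at 169 and 189.7 CPM in PU.1 SpiB DKO against 49.6 and 57.1 in control. Lck, Zap70, Cd2 and Thy1 were read at 13.5 to 189.7 CPM and held most of the sum. Cd3e, Cd3d and Cd3g stayed under 1 CPM, and Trac was under 1.5 CPM. The 6 tested myeloid markers summed to 45.8 and 60.8 CPM in control, 11.3 and 9.82 without PU.1, 60.8 and 41.3 without SpiB and 12.5 and 8.86 without both, with 0 interactions by edgeR, voom and DESeq2 and 1 at an unadjusted p under 0.05. Emr1 and Cd68 held most of that sum, Emr1 with 27.7 and 42.1 CPM in control and 4.85 and 4.19 in PU.1 SpiB DKO and Cd68 with 12.6 and 14.1 against 3.67 and 4.00. The part of other cells in the interactions was not tested. In bulk RNA, fewer cells of a type and less RNA per cell cannot be told apart.

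The plasmacytoid dendritic cell markers summed to 1198 and 1027 CPM in PU.1 SpiB DKO and to 610 to 819 CPM in the other 6 libraries. Siglech, their defining marker, was at most 0.493 CPM in any library, and Ly6d, Tcf4 and Atp1b1 held most of the sum. Of the 10 tested, 1 rose and 2 fell with double loss against control, which changed 18.3% of all tested genes. Tcf4 was read at 271 and 242 CPM in control and 163 and 151 in PU.1 SpiB DKO. Pacsin1 was read at 58.1 and 45.5 CPM in control and 12.0 and 10.2 in PU.1 SpiB DKO. Ly6d, which B cells also make, was read at 317 and 449.8 CPM in control and 555 and 591 in PU.1 SpiB DKO. Atp1b1, a subunit of the sodium pump that many cells make, was read at 5.00 and 8.07 CPM in control, 201 and 195 without PU.1, 15.8 and 12.1 without SpiB and 432 and 235 without both. The 5 tested erythroid and stromal markers summed to 16.8 to 92.4 CPM. Of 10 B cell markers, Ms4a1 had an interaction.

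The interaction was compared between stages in 1 fit of all 24 libraries, in which naive cells and LPS + IL-4 cultures have their own 8 libraries each, deposited in a separate count table. In naive cells Spi1 was read at 169 and 182 CPM in control, 63.6 and 57.05 without PU.1 and 108 and 118 in PU.1 SpiB DKO, and after LPS + IL-4 at 69.1 and 60.01, 42.5 and 39.5, and 58.8 and 54.8. PU.1 SpiB DKO thus lay above PU.1 cKO in both, unlike after CD40L + IL-4. The study describes the floxed Spi1 exon as partly kept in naive PU.1 SpiB DKO cells, so the naive interaction is not that of a full double loss. Against naive cells, stage and completeness of the loss therefore cannot be told apart. For LPS + IL-4 the study reports a deletion efficiency similarly high to that after CD40L + IL-4. The interaction in CD40L + IL-4 differed from that in naive cells in 103 of 13684 genes (0.753%) and from that in LPS + IL-4 in 52 (0.38%). Of the 149 genes, 33 differed from naive cells and 25 from LPS + IL-4. In all of these the interaction was larger in size after CD40L + IL-4, a direction favoured by choosing the genes there, and the sign was opposite in naive cells in 18 of the 33.

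Fgd2 had interactions of -3.43 ± 0.23 (SE) after CD40L + IL-4, -0.72 ± 0.21 in naive cells and -1.02 ± 0.21 after LPS + IL-4, and it differed from both (adjusted p = 0.000611 and 0.00336). Siglecg gave -2.46 ± 0.26, -0.17 ± 0.25 and -0.91 ± 0.25, and also differed from both (adjusted p = 0.0131 and 0.125). Pml gave -1.70 ± 0.21, 0.02 ± 0.20 and -0.23 ± 0.20, with adjusted p = 0.0188 and 0.0962. Lifr differed from naive cells, where it gave 0.93 ± 0.57, with an adjusted p of 0.0561. Rgs1 gave 2.77 ± 0.68, 4.14 ± 1.16 and -0.19 ± 0.73, and no difference passed the test (adjusted p = 0.826 and 0.379). Its naive value leans on control replicate 1, at 5.25 CPM against at most 1.17 CPM in the other 7 naive libraries. H2-K2 gave -5.08 ± 0.60, -5.10 ± 0.51 and -4.92 ± 0.48, again without a difference that passed the test.

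**Figure D4:**
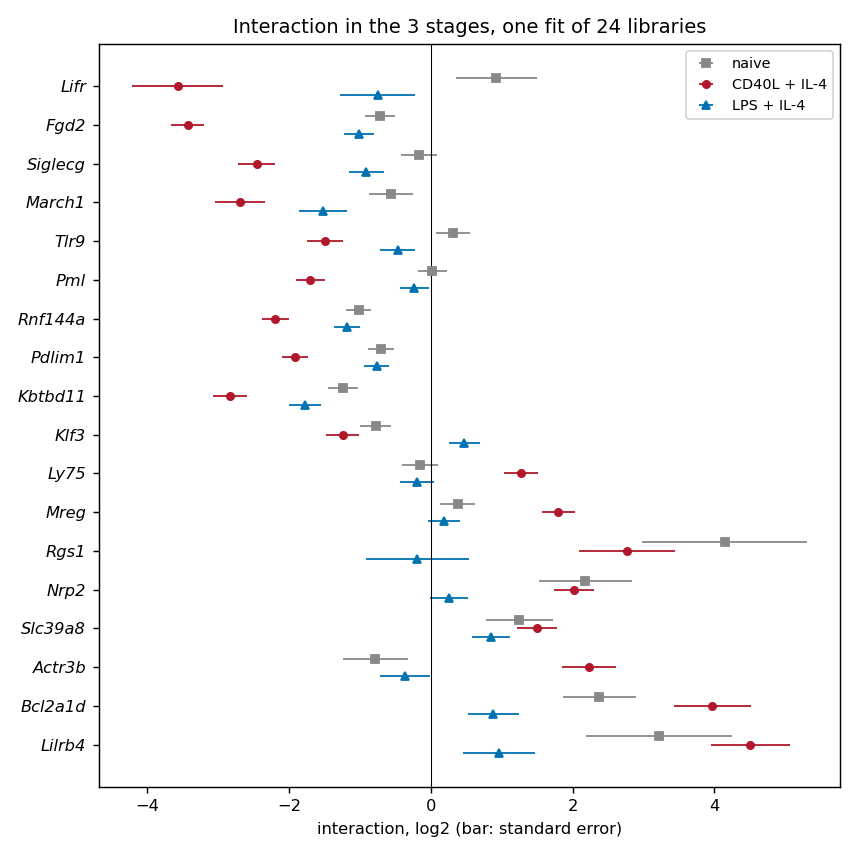
Interaction of 18 genes (horizontal axis, log2, with standard errors as bars) in naive cells, CD40L + IL-4 and LPS + IL-4, from 1 fit of 24 libraries. CD40L + IL-4 lies farthest from 0 in Fgd2, Siglecg, Pml and Mreg, whereas Nrp2 lies as far from 0 in naive cells, whose PU.1 SpiB DKO libraries kept more Spi1 reads than PU.1 cKO.

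Promoters were searched for the binding letters of the factors to show which genes hold them beside the start site. RefSeq promoter windows of 300 bases, from 250 before to 50 after the start, were at hand for 9608 of the 12721 tested genes. The core GAGGAAG, on either strand, was in 16.1% of these, in 22.6% of the 62 genes below the sum with a window and in 22% of 50 above it. The overlapping AGGAAGT was in 10.7%, 21% and 22%, and GAGGAAGT, which holds both, in 3.9%, 11.3% and 6%. The ETS-IRF composite GGAANNGAA was in 8.83%, 11.3% and 6%, and the interferon response core GAANNGAAA, which overlaps it, in 7.25%, 22.6% and 8%. For the 38 genes below the sum with a window in which both PU.1 SpiB DKO libraries were lowest, a group formed after values were seen, the core was in 31.6% and GAGGAAGT in 18.4%. A match is a description of letters and not a bound site.

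The stretches below run from 120 bases before to 30 after the start of 5 of the genes, 5′ to 3′ on the gene's strand, and are shown because each holds the core in a gene described above. Capitals mark GAGGAAG or its reverse complement CTTCCTC. Fgd2 (chr17:29360794-29360943, plus strand) holds it across bases 3 to 9 after the start and Tlr9 (chr9:106222478-106222627, plus strand) from 112 bases before the start and from base 12 after it. Pml (chr9:58249757-58249906, minus strand) holds it from 3 bases before the start, Cd72 (chr4:43454597-43454746, minus strand) from 48 bases before it and Bcl2a1d (chr9:88731821-88731970, minus strand) from 104 bases before it. Sequence and positions are RefSeq, GRCm38.p6.
Fgd2: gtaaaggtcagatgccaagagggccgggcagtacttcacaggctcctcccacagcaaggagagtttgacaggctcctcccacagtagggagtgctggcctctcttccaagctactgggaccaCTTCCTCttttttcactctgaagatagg
Tlr9: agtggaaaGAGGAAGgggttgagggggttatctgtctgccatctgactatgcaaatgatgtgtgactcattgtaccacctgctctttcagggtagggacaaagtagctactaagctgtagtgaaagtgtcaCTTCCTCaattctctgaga
Pml: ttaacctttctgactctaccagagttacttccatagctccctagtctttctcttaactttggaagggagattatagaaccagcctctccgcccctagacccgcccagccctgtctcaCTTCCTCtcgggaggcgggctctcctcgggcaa
Cd72: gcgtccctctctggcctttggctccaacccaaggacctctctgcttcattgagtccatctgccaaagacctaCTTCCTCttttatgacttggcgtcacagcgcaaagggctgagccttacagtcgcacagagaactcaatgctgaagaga
Bcl2a1d: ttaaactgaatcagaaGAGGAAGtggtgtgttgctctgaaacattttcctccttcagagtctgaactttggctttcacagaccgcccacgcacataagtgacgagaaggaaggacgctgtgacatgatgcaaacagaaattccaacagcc
Of these 5 genes, Fgd2 and Tlr9 fell beyond the sum, Pml moved opposite to it and Cd72 and Bcl2a1d fell short of it. They do not cover every form of departure in both directions. The windows of Rnf144a, Mreg, Fmnl2, S1pr3 and Nrp2 held none of the letters searched.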

How the data were processed

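Counts were made by the authors: per the labels and the study's methods, reads were aligned to GRCm38 (mm10) with Subread and assigned to RefSeq exons with featureCounts, unstated as to strand in the sources used here. Reads without a unique place in the genome were dropped by the study's methods. The deposited raw counts are in 2 tables of 27179 genes, 1 with the 8 libraries of CD40L + IL-4 and 1 with the 16 of naive cells and LPS + IL-4. The first was used, and for 1 comparison both were joined by gene. The authors also deposited log2 RPKM values, used here only in 1 alternative. Entries without a symbol numbered 517 (0.19% of the counts) and were kept. RefSeq placed 12434 of 12721 tested genes (97.7%).

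Genes reaching 0.5 CPM in 2 or more of the 8 libraries were fitted with edgeR 4.0.16 in R 4.3.3 (TMM, quasi-likelihood F test, group means, no block). The interaction was called at an adjusted p under 0.15 over all genes, and the other contrasts also required a fold over 1.5. The study's methods used voom with limma (3.58.1 here), kept as an alternative beside DESeq2 1.42.0. Standard errors are the log2 value over the root of F. Pairs of replicates gave r of 0.978 to 0.986 (log2 CPM) and differed beyond counting noise. The study's methods call replicates biological. With 2 libraries a side an exact permutation test cannot go below p = 0.333, so p-values rest on the spread shared across genes. Named genes were Spi1, Spib, the 15 smallest p in each direction, list members with an interaction, Fcer2a and regulators the study discusses; any other gene is stated as chosen later. A few genes of the rule and lists are not reported here, and the lists are counted without them. Members, lists and rules were chosen with earlier results of these data known. Alternatives are given in the closing section.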

Additional observations from a re-analysis of the deposited data

Results flagged for a closer look

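The interaction differed between stages by the test of the difference itself (edgeR's quasi-likelihood test on 24 libraries, adjusted p under 0.15 over 13684 genes) in the genes that follow, and no explanation was weighed. In naive cells and after LPS + IL-4, Spi1 reads were more frequent in PU.1 SpiB DKO than in PU.1 cKO. The study describes the floxed Spi1 exon as partly kept in naive PU.1 SpiB DKO cells. Against naive cells, stage and completeness of the PU.1 loss therefore cannot be told apart. For LPS + IL-4 the study reports a deletion efficiency similarly high to that after CD40L + IL-4. Against naive cells 33 of the 149 genes differed. The named genes with a lower interaction after CD40L + IL-4 than in naive cells were Lifr (-4.50, log2), Fgd2 (-2.71), Siglecg (-2.29), March1 (-2.13), Pik3cg (-2.07), Tlr9 (-1.81), Pml (-1.72), Kbtbd11 (-1.60), Ptpn22 (-1.48), Gbp3 (-1.31), Pdlim1 (-1.21) and Rnf144a (-1.18). Those with a higher one were Mreg (1.42), Ly75 (1.42) and Actr3b (3.02). Spi1 (-1.49) and Fcer2a (1.44) differed too, although neither had an interaction after CD40L + IL-4.

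Against LPS + IL-4 25 of the 149 genes differed. Lower after CD40L + IL-4 were H2-Q1 (-3.89), Fgd2 (-2.41), Bcl2l11 (-1.74), Klf3 (-1.72), Siglecg (-1.55), Pml (-1.47) and Pdlim1 (-1.16). Higher were Ly75 (1.47), Mreg (1.61), Nrp2 (1.77), Actr3b (2.60), Bcl2a1d (3.09) and Lilrb4 (3.55). Fcer2a (1.59), not one of the 149, differed too. At an adjusted p under 0.05, 9 genes differed from naive cells and 1 from LPS + IL-4 among all genes tested.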

How the results depend on the processing

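With 2 libraries a genotype, the number of genes called depended on the model more than their direction did, and the causes were not tested. The interaction count of 149 (69 above the sum, 80 below) became 75 (34 and 41) with voom and quantile normalization, 284 (128 and 156) with DESeq2, 46 (18 and 28) at an adjusted p under 0.05, 523 (242 and 281) when all 24 libraries were fitted together and 647 (308 and 339) without a filter on low counts. A filter of 1 CPM in 4 libraries gave 42 above the sum. Leaving out 1 library gave 48 to 260 genes, with 17 to 98 above the sum and 30 to 162 below. With a replicate block the count was 409 (183 and 226), and SpiB KO against control gave 57 genes, double loss against PU.1 loss 843, and the difference between stages 956 against naive cells and 414 against LPS + IL-4. Deviations of same-numbered libraries from their genotype means correlated between -0.07 and 0.27. The study's legends give fold changes of these data as means of 2 experiments, and the labels do not state whether replicate numbers mark them. The main test used no block, so such a pairing, if present, was ignored there. At an adjusted p under 0.05, PU.1 cKO against control gave 1048 genes, SpiB KO 9, double loss 1536, double loss against PU.1 loss 211, and the stage differences 9 (naive) and 1 (LPS + IL-4). Voom gave 34 for the difference from naive cells. Of the 48 named genes with an interaction, all 48 kept their sign under every alternative with a test, 31 kept their call under each alternative other than a left-out library or an adjusted p under 0.05, and 27 kept it with each library left out. Of the 23 named genes without one, 5 were called under at least 1 alternative (Bach2, Tnfrsf13c, Tlr4, Il5ra and Fcer2a). Signs of uncalled genes turned when libraries were left out, with ranges of -0.31 to 1.001 (Bcl6), -0.38 to 0.19 (Cd79a), -0.40 to 0.17 (Cd79b), -0.022 to 0.14 (Tcf3), -0.017 to 0.41 (Pax5), -0.33 to 0.13 (Ell2), -0.74 to 0.038 (Irf4) and -0.037 to 0.21 (Irf8). On the linear CPM scale Ell2 was 57.0 CPM above the sum, and 148 of the 149 genes kept their sign. Thinning PU.1 cKO replicate 2 to the median depth, removing Rn45s (6.64% of PU.1 SpiB DKO replicate 1) and RLE size factors left the counts within 1.5 times.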
